A study of Danio rerio with 340 samples.

Results

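The second dose step of warfarin was measured as the difference between 25 larvae exposed to 300 µM and 26 larvae exposed to 150 µM, chosen by the dose in their sample labels, among 76 larvae of the warfarin experiment and 340 larvae of the whole series. Each sample was 1 whole zebrafish larva at 5 dpf. Those at 150 and 300 µM had been kept singly in warfarin from the first hours after fertilization without a change of medium. The other 25 larvae of the experiment received no warfarin (0 µM). The study used DMSO or water as solvent, and which of them served for warfarin and the 0 µM wells is not stated. The larvae belonged to the laboratory strains AB, TU and RW and to PET, a stock from a pet store. The numbers at 0, 150 and 300 µM were 7, 7 and 7 for AB, 7, 7 and 6 for TU, 5, 5 and 5 for RW, and 6, 7 and 7 for PET. The labels name no transgene or mutation for these larvae. The study counts the larvae of a condition as 1 biological replicate and the sources used here do not name their clutches, so strain, clutch and exposure cannot be told apart, and each p-value below measures the spread between these larvae. The question addressed here was what the step from 150 to 300 µM added to the transcript levels, and the step from 0 to 150 µM is given beside it.

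Warfarin blocks the recycling of vitamin K, the cofactor with which the enzyme gamma-glutamyl carboxylase activates clotting factors and matrix proteins. Warfarin does so at the level of the proteins. The drug is cleared in the liver by cytochrome P450 enzymes, glucuronosyltransferases and export pumps, genes that nuclear receptors switch on when a foreign compound enters the hepatocyte. At 5 dpf a zebrafish larva has a working liver, an exocrine pancreas that fills its acinar cells with digestive zymogens before feeding starts, and an eye with a crystallin-filled lens and a retina in which cones mature before rods.

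The assay was Lasy-Seq, which sequences 3′ ends of transcripts in pooled barcoded libraries, and the authors deposited estimated counts per gene and larva. Total counts ran from 488708 to 4353855 at 150 µM and from 563143 to 5873611 at 300 µM, and the log10 total differed by 0.0285 between the doses (permutation test within strains, 100000 permutations, two-sided, p = 0.594). TU was the shallowest strain, with 8 of the 9 larvae of the experiment that held under 0.5 times the median total. Transcripts of muscle, blood, liver, pancreas, gut, lens and retina were all found in these whole larvae. A single PET larva at 150 µM (larva 4) stood apart, with 7 genes at more than 5 times the level of every other larva of the experiment, whereas no other larva had more than 3 such genes. Results that rest on it are given with and without it in the account of the strains.

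Levels are given below as the median over larvae in CPM (normalised counts, that is counts scaled to a common library size by TMM), with the lowest and the highest larva in parentheses, and differences as log2 fold changes ± SE with strain as a term. All gene lists used below were chosen with earlier results of these data known. Counts of called genes in a list therefore describe it and are not separate support.

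The second step changed 154 of 14826 genes tested (1.04%, edgeR quasi-likelihood test, Benjamini-Hochberg adjusted p under 0.05), of which 35 were higher (0.236%) and 119 lower (0.803%) at 300 µM. The decreases were led by the digestive enzymes of the pancreas, followed by crystallins of the lens, cone phototransduction genes and a group of liver products, and the increases held enzymes of purine and one-carbon metabolism. The changes were moderate, with a median absolute log2 fold change of 0.59 and 26 genes at or above 2-fold. Among the 154 genes, 138 had the same sign in all 4 strains. Of the 97 called genes whose single values were recomputed under the alternatives, 65 lost the call in at least 1 of the 4 fits that left out a strain. These fits also hold fewer larvae. Such losses are given below beside the genes described with a call over all 4 strains. For none of the called decreases did all 25 larvae at 300 µM lie below every 150 µM larva of their own strain. For the called decreases a median of 13 of 25 larvae at 300 µM lay below every 150 µM larva of their own strain, and for the called increases a median of 12 lay above. These counts and the shared signs come from genes called on the same larvae, so high values are partly set by that choice. The share over all genes tested is not given here. Since each sample was a whole larva, fewer cells of a type and less RNA per cell cannot be told apart in any of these values.

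The first step, from 0 to 150 µM, shared its 150 µM larvae with the second step, so the 2 sets of values are not independent. It called 214 genes higher (1.44%) and 187 lower (1.26%). A direct test of the second step minus the first called 42 genes with a lower second step (0.283%) and 1 gene, prps1a, with a higher one (0.00674%).

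Exocrine pancreas enzymes fell at the second step as they had at the first. Of 29 tested genes of the list, 20 were lower and 0 higher at 300 against 150 µM, with a median log2 fold change of -0.83 against 0.00 for all genes, and 28 of 29 had a negative value. At the first step 26 of the 29 were lower, with a median of -0.93, and no gene of the list passed the test of a difference between the steps. Together the 29 transcripts made up 1.75% of all normalised counts at 0 µM, 0.917% at 150 µM and 0.515% at 300 µM (medians over larvae), and their summed share at 300 µM ran from 0.142 to 0.916%.

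cpb1, which encodes the zymogen of carboxypeptidase B, had a median of 144 CPM (65.5 to 248) at 150 µM and of 61.8 CPM (13.8 to 165) at 300 µM, and 13 of 25 larvae at 300 µM lay below all 26 larvae at 150 µM. Its log2 fold change was -1.09 ± 0.14 (SE, edgeR adjusted p = 3.95e-07), after -0.79 ± 0.14 at the first step. amy2a, a pancreatic amylase, went from 81.6 CPM (37.4 to 162) to 46.1 CPM (6.15 to 83.1), a log2 fold change of -1.15 ± 0.17 (edgeR adjusted p = 4.77e-06). No larva at 300 µM exceeded every 150 µM larva of its strain for either gene. prss59.2, a trypsin-like serine protease and the list member with the most counts, had 2043 CPM (1106 to 2915) at 150 µM and 1291 CPM (367 to 2080.4) at 300 µM, so that both groups overlapped while 18 of 25 larvae lay below all 150 µM larvae of their own strain. Its log2 fold change was -0.72 ± 0.11 (edgeR adjusted p = 9.68e-06).

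**Figure D1:**
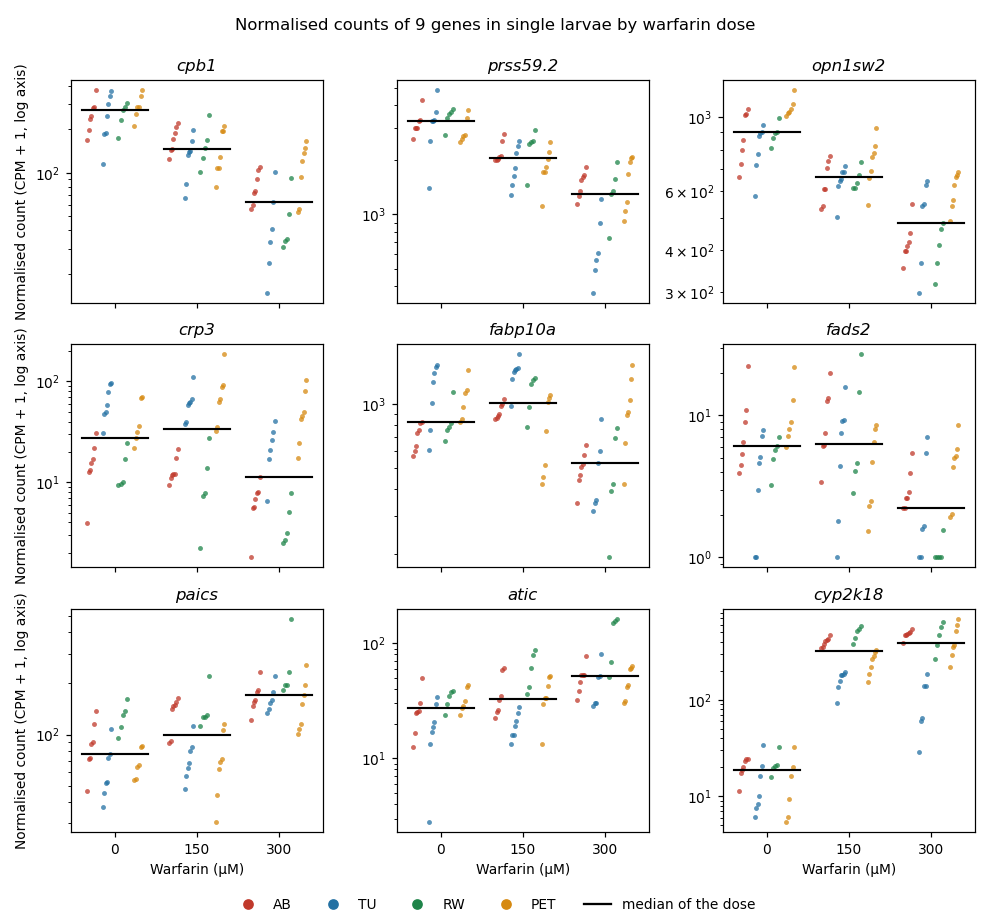
Normalised counts (CPM plus 1, log axis) of 9 genes in each of the 76 larvae at 0, 150 and 300 µM warfarin. Points are larvae coloured by strain and bars are medians over all larvae of a dose. cpb1 fell at both steps, and cyp2k18 had a median of 17.7 CPM at 0, 318 at 150 and 386 at 300 µM. Over all strains together, crp3 and fabp10a had a lower median only at 300 µM. Within strains, the median of crp3 in AB and RW and that of fabp10a in PET were already lower at 150 µM.

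The other enzyme classes behaved alike in direction. Among the elastases, serine proteases of the pancreatic juice, ela2l fell by 1.19 and ela3l by 1.18 on the log2 scale, with adjusted p (edgeR) of 5.74e-05 and 4.73e-05. Among the chymotrypsins, zgc:136461 (ctrb.2 in RefSeq) had the largest decrease of the list, -1.29 ± 0.21, and zgc:112160 (ctrb.3) went from a median of 611 to 283 CPM (adjusted p = 2.22e-05). cpa5, a carboxypeptidase A that is also a mast cell marker in zebrafish, had -0.85 ± 0.12, and it was also the single called gene of 20 tested neutrophil and macrophage genes. pla2g1b, the pancreatic phospholipase A2, had 19.3 CPM (5.26 to 86.1) at 150 µM and 8.92 CPM (0 to 28.9) at 300 µM, with a log2 fold change of -1.15 ± 0.24 (edgeR adjusted p = 0.00186). The carboxyl ester lipases cel.1 (-0.86 ± 0.16) and cel.2 (-0.76 ± 0.17) were also called, the first not without AB and the second not without TU or RW. Several of these families hold near-identical copies, so reads may be divided between copies in ways that the deposited counts do not show.

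Beyond the list, and chosen after their values were seen, pdia2, a protein disulfide isomerase of acinar cells, fell from a median of 107 to 72.5 CPM (-0.65 ± 0.10, edgeR adjusted p = 4.46e-06), and spink4, a Kazal-type protease inhibitor gene, from 114 to 73.3 CPM (-0.70 ± 0.12). In the endocrine pancreas, ins, insulin, had a log2 fold change of 0.01 (95% interval -0.23 to 0.24, edgeR adjusted p = 0.994), and gcga, a proglucagon gene, rose from 20.3 CPM (2.63 to 38.3) to 27.2 CPM (8.33 to 72.5), a change of 0.59 ± 0.15 (adjusted p = 0.0229) that was no longer called without AB, without RW or without PET. Of the listed genes, sycn.2, a syncollin of zymogen granules, had -0.97 ± 0.16. The number of listed exocrine enzymes called lower was 20 to 22 in the 51 fits that each left out 1 larva and 17 to 22 under the other alternatives.

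Some photoreceptor genes were lower at 300 µM. Of 41 tested genes of the list, 10 were lower and 0 higher (median log2 fold change -0.21, 34 negative), after 8 lower and 0 higher at the first step. opn1sw2, the blue cone opsin, had 662 CPM (502 to 928) at 150 µM and 480.01 CPM (297 to 685) at 300 µM. Of 25 larvae at 300 µM, 14 lay below all larvae at 150 µM, and the log2 fold change was -0.47 ± 0.06 (edgeR adjusted p = 1.05e-06) after -0.44 ± 0.06 at the first step. gnat2, the cone transducin alpha subunit that couples opsin to the phosphodiesterase, went from 346 CPM (238 to 442) to 253 CPM (157 to 382), with -0.46 ± 0.07 (edgeR adjusted p = 4.18e-06).

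The green opsin opn1mw1 (-0.41 ± 0.07), the red opsin opn1lw2 (-0.29 ± 0.06) and the ultraviolet opsin opn1sw1 (-0.35 ± 0.09) were called as well, although opn1sw1 had an adjusted p of 0.0508 when RW larva 4 at 300 µM was left out. The cone transducin subunits gngt2b (-0.34 ± 0.06) and gnb3b (-0.46 ± 0.11) and the cone-expressed opsin kinase grk1b (-0.50 ± 0.12) were lower too. In rods, rho, rhodopsin, had -0.28 (95% interval -0.49 to -0.07, edgeR adjusted p = 0.289) and gnat1, rod transducin, -0.33 (-0.51 to -0.15, adjusted p = 0.0502), and both intervals included the value of opn1sw2. gngt1, the rod transducin gamma subunit, had -0.30 (-0.47 to -0.13, edgeR adjusted p = 0.0502, under 0.05 in 16 of the 51 fits that left out 1 larva), and the cone arrestin arr3a had 0.06 (-0.08 to 0.21, adjusted p = 0.92). Cones were not tested against rods. Without AB 4 and without RW 5 photoreceptor genes of the list were called lower. opn1lw2 lost its call without AB, grk1b without AB or RW, and gnb3b and opn1sw1 without AB, RW or PET. Without RW the value of opn1sw1 was -0.24 (edgeR adjusted p = 0.504).

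Lens crystallins, the structural proteins of lens fibre cells, had small negative values throughout. All 37 tested genes of the list had a negative value, with a median of -0.39, and 8 were called lower, after 19 at the first step with a median of -0.40. crygm2d15, 1 of the gamma M crystallins of fish, had 449.99 CPM (242 to 711) at 150 µM and 323 CPM (182 to 554) at 300 µM, overlapping groups with 14 of 25 larvae below all 150 µM larvae of their strain. Its log2 fold change was -0.45 ± 0.11 (edgeR adjusted p = 0.0184). The crygm2d genes form a cluster of closely related copies, so they are uncertain as separate measurements. Of 20 tested, 12 were called lower, and all values lay between -0.45 and -0.21. The called listed gene with the largest decrease was grifin, a galectin-related lens protein, with 21.3 CPM (6.47 to 63.9) at 150 µM and 11.7 CPM (1.37 to 30.3) at 300 µM (-0.85 ± 0.17, edgeR adjusted p = 0.00106). lenep, a lens epithelial gene chosen after its values were seen, had -0.92 ± 0.22 (adjusted p = 0.0142). The listed crystallin with the most counts, cryba4, had -0.39 (95% interval -0.62 to -0.16, adjusted p = 0.0747).

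The call count of the crystallin list depended on a few larvae. It was 5 without RW larva 1 or 5 at 300 µM, 14 without PET larva 7 at 300 µM or RW larva 4 at 150 µM and 15 without PET larva 4 at 300 µM or RW larva 3 at 150 µM. It was 3 without the larvae of low total count, 0 without AB, 2 without TU, 5 without RW and 20 without PET. The calls of crygm2d15 (0.489) and grifin (0.188) were lost without AB, as was that of lenep (0.308), which was also lost without TU (0.149). That of crygm2d15 was also lost without RW (0.0612).

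Liver products moved in both directions at the second step. Of 28 tested hepatocyte genes, 4 were lower and 1 higher, with a median of -0.01, and their summed share of counts had a median of 1.34% at 150 µM and 1.31% at 300 µM. The number lower was 1 without AB or RW, 2 without TU and 6 without PET. fabp10a, the liver fatty acid binding protein, had 817 CPM (573 to 1509) at 0 µM, 1008 CPM (423 to 1697) at 150 µM and 528 CPM (191 to 1517) at 300 µM. Over all strains together its median fell only at the second step. The log2 fold change was -0.75 ± 0.13 (edgeR adjusted p = 1.01e-04) against 0.18 ± 0.13 at the first step, and the difference between the steps was -0.93 ± 0.22 (adjusted p = 0.0297). In PET alone the median of fabp10a was lower at 150 than at 0 µM and higher at 300 than at 150 µM. The second step of fabp10a differed between strains (edgeR adjusted p = 0.00234), as described with the strains below. Without TU the second step of fabp10a had an adjusted p of 0.0744. The difference between the steps had adjusted p of 0.0909 without the larvae of low total count and of 0.648, 0.597 and 0.450 without AB, TU or RW.

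The transport proteins gc, which carries vitamin D, and ttr, which carries thyroid hormone, fell as well. gc had 57.6 CPM (34.4 to 89.7) at 150 µM and 28.7 CPM (16.7 to 94) at 300 µM (-0.69 ± 0.14, edgeR adjusted p = 0.00128), and 15 of 25 larvae lay below every larva at 150 µM while 1 PET larva lay above them all. ttr had a median of 59.9 CPM at 150 µM and 30.1 at 300 µM (-0.71 ± 0.17, adjusted p = 0.0117). The call of gc was lost without AB (0.189) and RW (0.109), and that of ttr without AB (0.308), without RW (0.0769) and without TU, where its value was -0.44 (0.397). tdo2a, the liver enzyme that opens the ring of tryptophan, went from 51.5 CPM (30.2 to 110.5) to 31.5 CPM (7.81 to 67.3), a log2 fold change of -0.68 ± 0.13 (edgeR adjusted p = 3.70e-04). The call of ahsg2, a fetuin gene with a median of 0 CPM at 300 µM (-2.05 ± 0.57, adjusted p = 0.0476), was lost in 33 of the 51 fits that left out 1 larva. It was also lost without AB, without TU and without RW.

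Transcripts of bhmt and of some secreted proteins of lipoproteins and clotting rose, and which organ made them was not measured. apobb.1, an apolipoprotein B gene of lipoprotein particles, went from 1142 CPM (814 to 1665) to 1524 CPM (1034 to 1967), and its log2 fold change of 0.36 ± 0.07 (edgeR adjusted p = 1.54e-04) lay between 0.33 and 0.38 in the 4 strains. bhmt, which remethylates homocysteine with betaine, went from 676 CPM (384 to 1176) to 908 CPM (568 to 1554), a log2 fold change of 0.38 ± 0.07 (adjusted p = 5.66e-04), and fga, the fibrinogen alpha chain, ranged from 41 to 164 CPM at 150 µM and from 59 to 326 at 300 µM (0.47 ± 0.10, adjusted p = 0.00208). fgb, the fibrinogen beta chain, had 0.22 (95% interval 0.04 to 0.39, adjusted p = 0.376).  apoea, an apolipoprotein E gene, had 922 CPM (368 to 1846) at 150 µM and 1155 CPM (691 to 2088) at 300 µM (0.43 ± 0.10, edgeR adjusted p = 0.0114), and serpinf2a, an inhibitor of the clot-dissolving enzyme plasmin, fell from a median of 30.8 to 19.8 CPM (-0.59 ± 0.14, adjusted p = 0.00712). Of the 16 tested genes of fibrinogen, fibrinolysis and clotting inhibitors, fga and serpinf2a were the called ones. Of 11 tested yolk and lipoprotein genes apoea was the single called one, and 9 had a positive value. The call of fga was lost without RW (0.174), that of serpinf2a without AB (0.205) and RW (0.0853), and that of apoea without RW (0.0629), without PET (0.166) and without AB, where its value was 0.24 (0.538).

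The C-reactive protein genes crp2 and crp3 and some genes of polyunsaturated fatty acid synthesis fell at the second step. None of them had been called at the first step, where crp2 had -0.17, crp3 0.05, elovl2 0.13 and fads2 0.20. Of 25 tested inflammation genes 2 were lower, both C-reactive proteins, markers of the acute-phase response of the liver. The fatty acid list was put together after the values were seen and had 3 lower of 9. Its values were 5 negative and 4 positive, with a median of -0.13. The third lower gene was acsl5, an acyl-CoA synthetase (-0.39 ± 0.10), whose call was lost in 13 of the 51 fits that left out 1 larva. The call of acsl5 was also lost without AB, without TU and without RW. The C-reactive protein genes crp2 and crp3 are neighbours in the RefSeq annotation, so reads may be divided between copies. crp3 had 26.8 CPM (2.92 to 96.2) at 0, 32.8 CPM (1.22 to 184) at 150 and 10.2 CPM (0.807 to 103) at 300 µM, with overlapping groups and levels that differed between strains, and 13 of 25 larvae lay below all 150 µM larvae of their strain. Its log2 fold change was -1.01 ± 0.21 (edgeR adjusted p = 0.0013), and that of crp2 -1.23 ± 0.26 (adjusted p = 0.0026). The call of crp3 was lost without TU (0.0666), and that of crp2 without TU (0.201) and AB (0.0793).

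bfb, a complement factor B gene, had -1.20 ± 0.27 (edgeR adjusted p = 0.00475, and 0.219 without AB). fads2, the desaturase of long fatty acids, had 5.32 CPM (0 to 25.9) at 150 µM and 1.24 CPM (0 to 7.55) at 300 µM. This low-count gene had the log2 fold change -1.74 ± 0.36 (edgeR adjusted p = 0.0013), a call lost without AB (adjusted p = 0.119) and without RW (0.119). The second step of fads2 differed between strains (edgeR adjusted p = 0.0186), a call lost in 3 of 51 fits without a larva. RW larvae ranged from 1.83 to 25.9 CPM at 150 µM and from 0 to 0.558 CPM at 300 µM. PET larvae ranged from 0.545 to 7.55 CPM at 150 µM and from 0.936 to 7.55 CPM at 300 µM. elovl2, which lengthens the same acids, went from 29.7 CPM (6.67 to 63.1) to 19.4 CPM (4.68 to 34.4), a log2 fold change of -0.76 ± 0.16 (edgeR adjusted p = 0.00241). The call of elovl2 was lost without AB (0.114) and RW (0.056). For these genes the test of the second step against the first did not pass, with adjusted p of 0.342 for crp3, 0.201 for fads2 and 0.266 for elovl2. Of 19 cholesterol synthesis genes, 18 had a negative value with a median of -0.44, and 0 passed the edgeR test, with 11 at an unadjusted p under 0.05 and 0 by DESeq2. The one nearest to the threshold was msmo1, a sterol oxidase (-0.85 ± 0.24, adjusted p = 0.0519).

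In the gut and in other tissues few genes were called lower. Of 19 tested genes of the intestinal list 3 were called lower and 0 higher, and 18 had a negative value (median -0.28). In either direction 11 of the 19 had an unadjusted edgeR p under 0.05, and DESeq2 called 4 lower and 0 higher. chia.1, an acidic chitinase, had 97.1 CPM (29.9 to 133) at 0, 32.7 CPM (8.07 to 62) at 150 and 17.5 CPM (0 to 33.6) at 300 µM (second step -1.01 ± 0.18, edgeR adjusted p = 7.11e-05), and chia.2 -0.74 ± 0.16 (adjusted p = 0.00384). mep1a.1, a meprin of the intestinal brush border, had -0.77 ± 0.21 (adjusted p = 0.0398), a call lost in 23 of the 51 fits that left out 1 larva. The call of mep1a.1 was also lost without each strain in turn. enpp7.1, an intestinal sphingomyelinase, fell by 1.24 on the log2 scale (edgeR adjusted p = 0.0026). The calls of chia.2 without TU (0.0646) and of enpp7.1 without AB (0.0662) were lost. dusp23a, a dual specificity phosphatase, had 21 CPM (8.15 to 49.6) at 150 µM and 8.88 CPM (1.7 to 28.5) at 300 µM (-1.19 ± 0.19, edgeR adjusted p = 1.84e-05).

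Smaller decreases were called in abundant transcripts. mt-co2, a cytochrome oxidase subunit of the mitochondrial genome, went from 14362 CPM (11913 to 18358) to 12547 CPM (9148 to 15223), a log2 fold change of -0.22 ± 0.05 (edgeR adjusted p = 0.00195). It was the single called gene of 13 genes of that genome, of which 12 had a negative value (median -0.11). icn, an S100-type calcium-binding protein of the larval skin, had -0.31 ± 0.07 (adjusted p = 0.0018), and slc25a3a, a mitochondrial phosphate carrier, -0.55 ± 0.11 (adjusted p = 4.72e-04). s100b, the only called gene of 25 of the progenitor and radial glia list, had -0.57 ± 0.12 (adjusted p = 0.0026). krt93, a low-count keratin gene of the skin list, had 1.62 CPM (0 to 9.44) at 150 µM and 0 CPM (0 to 5.5) at 300 µM (-1.86 ± 0.47, edgeR adjusted p = 0.0229, and 0.0644 without TU larva 6 at 150 µM). It was not called without AB, without PET (-1.23, 0.44) or with the replicate block (0.0574). The calls of mt-co2 without AB (0.103), of icn without RW (0.103) and of s100b without AB (0.0627) or TU (0.208) were lost as well. The lists of heart muscle (14 genes), cartilage and bone (28), collagens (20), neurons (26), myelin (12), erythroid cells (21), endothelium and thrombocytes (13) and cytosolic ribosomal proteins (73) had 0 called genes by edgeR, and their medians lay between -0.07 and 0.08. Between 1 and 4 genes of each of these lists had an unadjusted p under 0.05, and DESeq2 called 0. Negative values were 62 of 73 for ribosomal proteins, 20 of 26 for neurons, 9 of 13 for endothelium and thrombocytes and 8 of 12 for myelin. They were 15 of 28 for cartilage and bone, 7 of 20 for collagens, 5 of 14 for heart muscle and 5 of 21 for erythroid cells. Over all genes tested they were 7365 of 14826. Fast muscle had 1 called gene of 29, pgam2, a glycolytic mutase (-0.40 ± 0.08, edgeR adjusted p = 0.0016), which had -0.24 without AB (0.489).

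**Figure D2:**
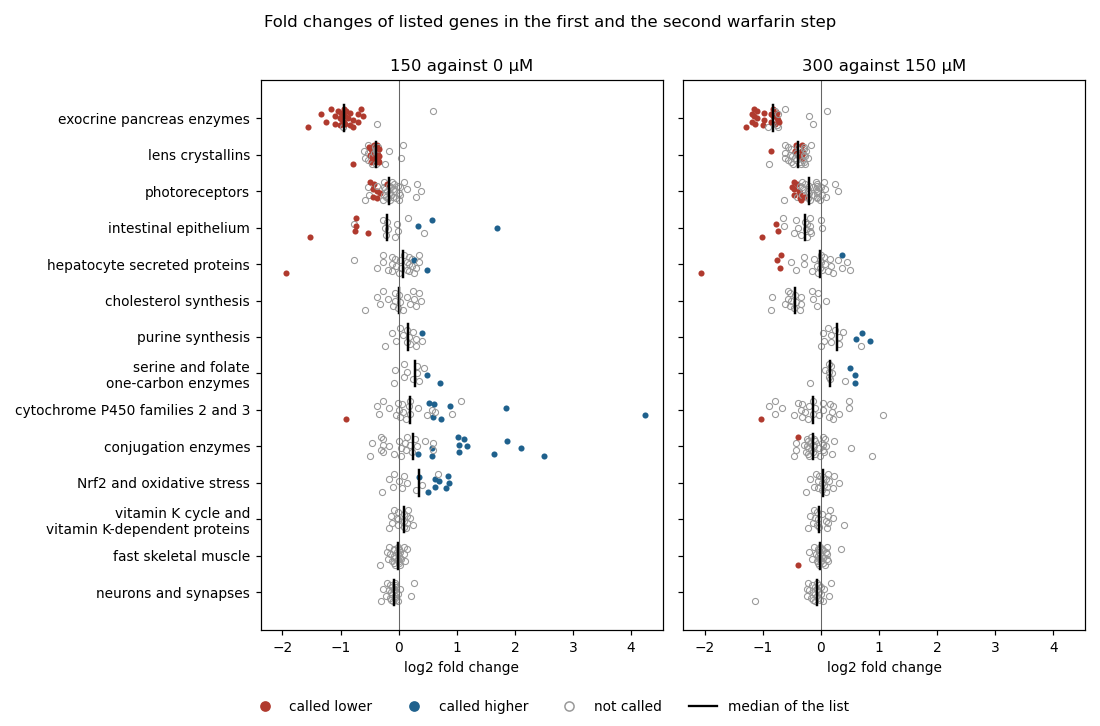
log2 fold changes of the tested genes of 14 lists at the first step (left, 150 against 0 µM) and the second step (right, 300 against 150 µM), which share the 150 µM larvae. Points are genes, filled where the edgeR adjusted p was under 0.05, and bars are list medians. The pancreas medians were -0.93 and -0.83 at the 2 steps, and called conjugation genes were 12 higher at the first step and 1 lower at the second.

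Purine synthesis enzymes were among the called increases, with 3 of 14 tested genes higher and all 14 values positive (median 0.28) in a list put together after the values were seen. paics, which catalyses 2 consecutive reactions of the de novo pathway, had 75.9 CPM (36.3 to 161) at 0, 98 CPM (29.6 to 219) at 150 and 169 CPM (99.2 to 479) at 300 µM. Of 25 larvae at 300 µM, 16 lay above all 150 µM larvae of their strain and none lay below them. The log2 fold change was 0.85 ± 0.12 (edgeR adjusted p = 1.04e-06) after 0.29 ± 0.12 at the first step, and the values in AB, TU, RW and PET were 0.33, 1.15, 0.86 and 1.14.

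prps1a, which makes the ribose phosphate donor of the pathway, had 37.7 CPM (23.2 to 93.6) at 150 µM and 58.5 CPM (37.7 to 95.4) at 300 µM (0.61 ± 0.09, edgeR adjusted p = 4.18e-06). Its first step was -0.05 ± 0.09, and it was the only gene with a significantly higher second step (difference 0.66 ± 0.16, adjusted p = 0.0316), a difference not called without AB, RW or PET. atic, which closes the purine ring, went from 31.6 CPM (12.2 to 86.2) to 50.6 CPM (27.7 to 162), a log2 fold change of 0.71 ± 0.15 (edgeR adjusted p = 0.00208), a call lost without TU (0.0829). The summed level of the 14 purine genes had medians of 420 at 0, 454 at 150 and 626 CPM at 300 µM.

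Of the enzymes that feed the pathway with one-carbon units, 3 of 12 tested genes were higher and 11 had a positive value (median 0.17), in a list also chosen after the values were seen. phgdh, the first enzyme of serine synthesis, went from 33.8 CPM (3.74 to 81.3) to 50.5 CPM (21.5 to 112), a log2 fold change of 0.59 ± 0.11 (edgeR adjusted p = 5.18e-04), and 16 of 25 larvae lay above all 150 µM larvae of their strain. The mitochondrial folate enzymes mthfd2 (0.50 ± 0.13, adjusted p = 0.0374) and mthfd1l (0.59 ± 0.16, adjusted p = 0.0333) were called, but lost in 19 and 15 of the 51 fits that left out 1 larva. mthfd2 was also not called without AB, TU or PET, nor mthfd1l without each strain in turn. The list's count was 1 without AB, TU or PET and 2 without RW. It also fell to 1 in 8 of the 51 fits, those without AB larva 2 or 7, or TU larva 1, at 300 µM, or without PET larva 5 or 6, RW larva 5, or TU larva 6 or 7, at 150 µM.

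Among the other increases, slc1a4, a transporter of alanine and serine, had 0.52 ± 0.12 (edgeR adjusted p = 0.00724), and nt5c3a, a pyrimidine nucleotidase chosen after its values were seen, 0.41 ± 0.08 (adjusted p = 5.80e-04). slc38a2, a transporter of neutral amino acids (0.32 ± 0.08), and hsp90aa1.2, a heat shock chaperone (0.44 ± 0.11), were called with adjusted p of 0.0282 and 0.0307 and lost the call in 9 and 8 of the 51 fits. slc38a2 was also not called without each strain in turn or with no filter (0.0502). hsp90aa1.2 was not called without AB, TU or RW, or without the larvae of low total count (0.0804). Neither was called with the replicate block (0.073 and 0.0772). slc1a4 was not called without AB, TU or RW, nor nt5c3a without AB. mcm5, a subunit of the replicative helicase, had 0.45 ± 0.11 (adjusted p = 0.0163) and was the single called gene of 42 of DNA replication and cell division, but not without AB, RW or PET. Among the largest increases with the same sign in every strain were genes of low level. snap23.2, a membrane fusion protein gene, had 3.59 CPM (0 to 11.4) at 150 µM and 6.62 CPM (2.01 to 15) at 300 µM (1.03 ± 0.26, edgeR adjusted p = 0.0221), and acot17, an acyl-CoA thioesterase gene, 6.11 CPM (0 to 11.4) and 11.6 CPM (2.52 to 23.3), a log2 fold change of 0.90 ± 0.23 (adjusted p = 0.0229). The call of snap23.2 was lost without AB or RW, and that of acot17 without AB, RW or PET. sesn2, a stress-induced sestrin (0.99 ± 0.28, adjusted p = 0.0495), and zgc:136410 (0.83 ± 0.23, adjusted p = 0.0433) lost their calls in 35 and 26 of the 51 fits that left out 1 larva. sesn2 also lost its call without each strain in turn, and zgc:136410 without AB, TU or PET.

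rtca, an RNA cyclase (0.70 ± 0.18, edgeR adjusted p = 0.0275), lost its call without TU larva 1, RW larva 4 or PET larva 2 at 300 µM (0.0529 to 0.0537), and CU914622.2 (0.67 ± 0.17) without PET larva 3 or TU larva 6 at 300 µM (0.0633 and 0.0517). rhcga, an ammonium transporter of ionocytes, had 0.68 ± 0.17 (edgeR adjusted p = 0.0188), and 0.45 without RW (0.444). rtca lost its call without each strain in turn, and CU914622.2 without AB or TU. The remaining named increases, CABZ01114105.1 (0.66 ± 0.14) and si:dkey-247k7.2 (0.64 ± 0.11), have no described product here, and both were not called without AB, nor the first without PET. Of the decreases without a described protein product, si:dkey-22i16.7, a long noncoding RNA in RefSeq, had 18.3 CPM (1.01 to 50.9) at 150 µM and 4.99 CPM (0 to 31.6) at 300 µM (-1.81 ± 0.32, edgeR adjusted p = 1.07e-04), and si:dkey-203a12.9 had -1.15 ± 0.22.

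Drug metabolism genes, many of which rose at the first step, held few calls at the second. Of 34 tested conjugation enzymes, 12 were higher and 0 lower at the first step, and 0 were higher and 1 lower at the second. For 10 of them the second step was lower than the first in the direct test. The families 2 and 3 of cytochrome P450 had 7 higher and 1 lower of 28 at the first step and 0 higher and 1 lower at the second, and the Nrf2 list 8 higher of 19 at the first and 0 at the second. cyp2k18, a P450 of the family that oxidises drugs and fatty acids, had 17.7 CPM (4.42 to 33.1) at 0, 318 CPM (91.7 to 576) at 150 and 386 CPM (27.7 to 687) at 300 µM. The groups at 0 and 150 µM did not overlap and those at 150 and 300 µM overlapped over most of their range.

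Its first step was 4.23 ± 0.18 and its second 0.16 ± 0.14 (95% interval -0.12 to 0.44), and the difference of -4.07 ± 0.25 had an edgeR adjusted p of 3.20e-24. cyp2y3 had 1.84 ± 0.10 and 0.03 ± 0.09, and gstt1b, a glutathione S-transferase, 1.86 ± 0.10 and -0.20 ± 0.10. The glucuronidation genes ugt2a4 (1.64 and 0.05), ugt1a1 (1.02 and -0.23) and ugdh, which makes the sugar donor (1.74 and -0.05), and the efflux pump abcc2 (1.76 and -0.10) followed the same order of first and second step. si:dkey-11k2.7 had 3.01 and -0.21. All of these had adjusted p under 0.05 in the test of the difference, the highest being that of ugt1a1 with 3.35e-07. The values are over all strains, and the second step differed between strains for ugt2a4 and gstt1b (edgeR adjusted p = 0.00621 and 0.0289). The call of gstt1b was lost in 7 of 51 fits without a larva. For ugt2a4 the second step in PET lay 0.93 above the mean of the other strains, which was -0.22. For cyp2k18 the difference from the other strains was 0.22 in AB, -0.93 in TU, -0.25 in RW and 0.95 in PET. None of these 4 was called (lowest edgeR adjusted p = 0.187, in PET). Beside the 0 increases by edgeR at the second step, DESeq2 called 0 of the conjugation genes, 1 of the P450 genes and 0 of the Nrf2 genes higher. It called 2, 3 and 1 genes of these lists lower, in the same order. In either direction 14, 11 and 2 genes had an unadjusted edgeR p under 0.05, against 1237 of all 14826 genes. Negative values at the second step were 23 of 34, 17 of 28 and 7 of 19.

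abcc12, another ABC transporter, was higher at both steps. It had 4.96 CPM (0.662 to 12.2) at 0, 26.1 CPM (3.74 to 57) at 150 and 44.4 CPM (8.24 to 77) at 300 µM, a first step of 2.23 ± 0.18 and a second of 0.69 ± 0.15 (edgeR adjusted p = 0.00375), which was not called without AB or without PET. The single conjugation gene called at the second step was gsta.1, a glutathione S-transferase, which fell (-0.39 ± 0.08, edgeR adjusted p = 0.0018), although not without AB (0.0819) or without TU, where it had -0.24 (0.169). The single P450 was cyp2ad2, which fell at both steps (-0.90 ± 0.17 and -1.02 ± 0.18).

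**Figure D3:**
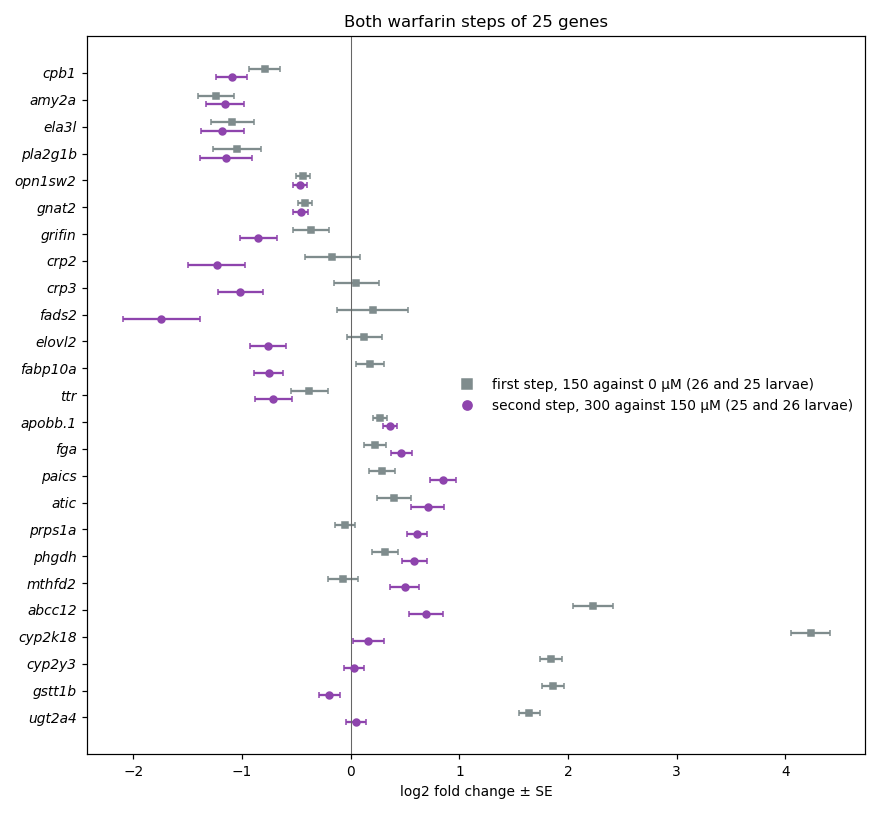
log2 fold change ± SE of 25 genes at the first step (squares, 150 against 0 µM) and the second step (circles, 300 against 150 µM), which share the 150 µM larvae. The pancreas gene cpb1 had -0.79 and -1.09, crp3 0.05 and -1.01, paics 0.29 and 0.85, and cyp2k18 4.23 and 0.16.

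Transcripts of the vitamin K system were not called at either step. Of 17 tested genes of the list, 0 passed the edgeR test at the second step, with 0 at an unadjusted p under 0.05 and 0 by DESeq2. The list had 8 positive and 9 negative values and a median of -0.03. f2, prothrombin, had 76.5 CPM (48.9 to 109.6) at 150 µM and 91.3 CPM (57.7 to 122) at 300 µM, a log2 fold change of 0.13 (95% interval -0.02 to 0.28, edgeR adjusted p = 0.708). f7, factor VII, had 0.10 (-0.27 to 0.47) and ggcx, the carboxylase, 0.21 (-0.10 to 0.51), with adjusted p of 0.959 and 0.814. vkorc1, the direct target of the drug, had 0 to 9 counts per larva, below the filter, so a difference was not detectable at this depth. cyp1a, the marker of the aryl hydrocarbon receptor, had -0.46 (-0.83 to -0.10, edgeR adjusted p = 0.352). In the endoplasmic reticulum stress list 5 of 18 genes were higher at the first step and 0 at the second, with 4 at an unadjusted p under 0.05 and 0 by DESeq2.

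The second step was then compared between strains. Within strains, tested with a separate mean per strain and dose group, 52 genes were called in AB (0.351%), 120 in TU (0.809%), 41 in RW (0.277%) and 21 in PET (0.142%). Fits on a strain's own larvae called 102, 69, 60 and 3 genes in the same order, so the order of AB and TU depended on the fit, and with a replicate block PET had 5. The count in RW, with 5 larvae a dose, ran from 12 without larva 1 at 300 µM to 51 without larva 2. It was also 18 without larva 5, 26 without larva 3 or 4 at 300 µM, and 25 without larva 1 or 5 at 150 µM. Genes called in the larvae of 3 strains were followed in the strain left out, with no larva shared. AB kept the direction of 56 of 60 genes (93.3%) and TU that of 91 of 108 (84.3%). RW kept 90 of 98 (91.8%) and PET 137 of 205 (66.8%). Over all genes tested in the fit on the strain left out, 48.7% had a negative value in AB, 50.3% in TU, 50.5% in RW and 51.2% in PET. The direction was kept with an unadjusted edgeR p under 0.05 for 45, 52, 58 and 28 genes in AB, TU, RW and PET. Such a p was found, in either direction, for 8.95, 6.77, 7.34 and 6.86% of all genes tested in these fits.

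A test of a difference in the second step between any strains called 42 genes (0.283%), of which 10 were among the 154 genes called overall. The count was 79 without TU larva 3 at 300 µM, 21 without PET larva 4 at 150 µM, and 24, 27 and 25 without PET larvae 1, 2 and 7 at 300 µM. fabp10a had the log2 fold changes -0.89 in AB, -1.47 in TU, -1.18 in RW and 0.34 in PET (edgeR adjusted p for a difference 0.00234). gc had -1.22, -0.75, -1.31 and 0.21 in the same order (adjusted p = 0.0186), a call that was lost in 2 of 51 fits without a larva. rhbg, an ammonium transporter of the skin, had -0.05, 0.42, 1.07 and 0.10 (adjusted p = 0.00234), and mgst3b, a microsomal glutathione transferase, -0.07, -0.88, -0.26 and 0.17 (adjusted p = 0.00236). Strain and clutch cannot be told apart in these differences. The pancreas genes cpb1, prss59.2 and pla2g1b did not pass this test, with adjusted p of 0.374, 0.0798 and 0.29. cpa5 and ctrb1 passed it (adjusted p = 0.0487 and 0.0375, lost in 34 and 16 of the 51 fits), with the most negative value in TU and the least negative in PET for both.

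**Figure D4:**
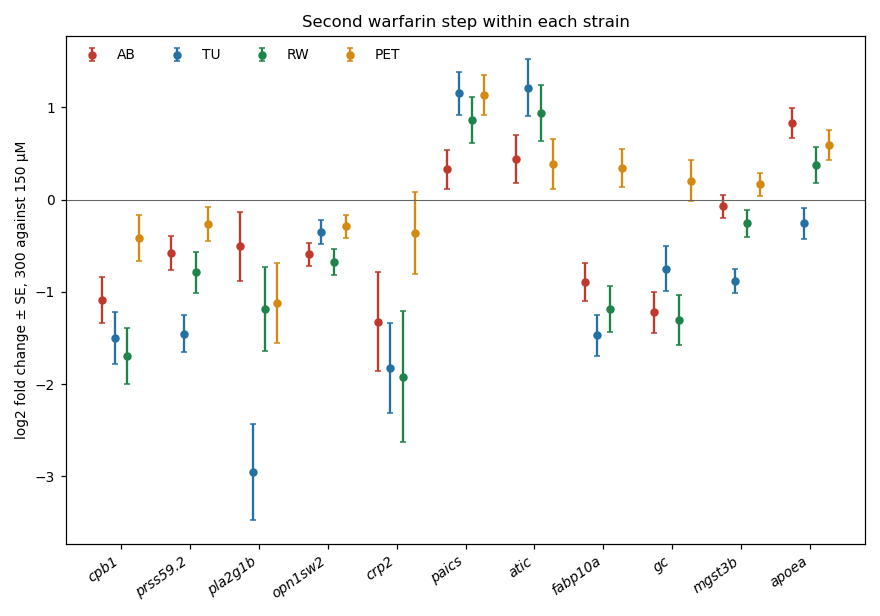
log2 fold change ± SE of the second step (300 against 150 µM) within AB, TU, RW and PET for 11 genes, with a separate mean per strain and dose group. paics was above 0 and cpb1 below 0 in all 4 strains, whereas fabp10a was 0.34 in PET and between -1.47 and -0.89 in the others.

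Each strain was also set against the mean of the other 3, a contrast chosen after the values within strains had been seen. It called 23 genes in PET (0.155%), 6 in RW (0.0405%), 5 in TU (0.0337%) and 0 in AB (0%), where 811 genes had an unadjusted p under 0.05 and leaving out 1 larva gave up to 2 calls. In PET, 12 genes had a higher and 11 a lower second step than in the other strains. fabp10a (1.52 ± 0.25, edgeR adjusted p = 0.000332), rbp2b, a cellular retinol binding protein (1.18 ± 0.21, adjusted p = 0.00137), scp2a, a sterol carrier protein (1.03 ± 0.18, adjusted p = 0.00113), and ugt2a4 (0.93 ± 0.17, adjusted p = 0.00159) remained called in all 51 fits without a larva.

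The 11 lower genes of PET depended on the larva that stood apart. wdr53, a WD repeat gene, had 1222 CPM in PET larva 4 at 150 µM, 336 CPM in larva 7 and 22.1 to 57.6 CPM in the other 5 larvae of that group, against 20.1 to 63.5 CPM at 300 µM. Without larva 4 the contrast of PET called 6 genes, all of them higher and all among the 12, and the test between strains called 21 genes, 20 of them among the 42. The PET contrast also called 8, 10 and 13 genes without PET larvae 7, 2 and 5 at 300 µM, and 43 and 39 without PET larvae 1 and 5 at 150 µM.

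In RW, rhbg (0.92 ± 0.16, edgeR adjusted p = 0.00129) had a higher second step than in the other strains and and1, an actinodin of the fin fold (-0.95 ± 0.16, adjusted p = 0.000806), a lower one, and both were called in all 51 fits that left out a larva. The RW count was 3 without RW larva 5 at 300 µM. In TU, mgst3b (-0.83 ± 0.15, adjusted p = 0.00414) and dhrs13l1, a dehydrogenase (-1.32 ± 0.24, adjusted p = 0.00414), had a lower second step than in the other strains in all of those fits. The TU count itself moved by more than 1.5 times in 31 of the 51 fits, from 2 to 62, the highest without TU larva 3 at 300 µM.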

How the data were processed

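The 3′ ends of RNA of 340 single larvae had been sequenced by Lasy-Seq, and the authors deposited 1 table of estimated counts for 31658 genes, not normalised. The submitters' processing notes name the zebrafish build GRCz11 and Seurat 5.1.0, and the aligner is not given in the sources used here. In the 76 warfarin larvae 22 values in 12 genes were not whole, and they were rounded. Dose and strain were taken from the sample labels, and no larvae had identical values. The members and gene lists were chosen with earlier results of these data known.

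The 76 larvae were fitted together with strain and dose as terms in edgeR 4.0.16 (R 4.3.3, limma 3.58.1), after a filter (minimum count 10, minimum total count 15) that kept 14826 genes and TMM normalisation. Quasi-likelihood tests were adjusted by Benjamini-Hochberg over all genes tested, with a threshold of 0.05. A second fit had 1 mean per strain and dose group. Standard errors and 95% intervals came from the fitted log2 fold change and its moderated test. The test of the second step was also run on simulated counts that held no strain differences, so the contrasts between strains were not checked.

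Genes were named when they were among the 12 largest increases or decreases called with the same sign in 4 strains and 10 or more counts on average, up to 3 called members with the smallest p and the member with most counts of a list, f7, f2, vkorc1, ggcx, cyp1a and fabp10a, and the 4 genes with the smallest p for the second minus the first step in each direction. Genes named outside this rule were chosen after their values were seen. RefSeq (GRCz12tu, not the build of the table) was used for names alone. Alternatives were DESeq2 1.42.0 (its size factors and its Wald test), no filter, a total count covariate, a replicate block, only the larvae at 150 and 300 µM, a minimum log2 fold change of 1, and fits without each larva, each strain or the larvae under 0.5 times the median total.

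Totals of 414905 to 5873611 counts per larva (median 1839499) limit the precision for genes of low level, and intervals cover counting error and the spread between larvae of these exposures.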

Additional observations from a re-analysis of the deposited data

Results flagged for a closer look

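The total count of PET larva 1 at 150 µM, 3121494, lay far above those of the other 6 larvae of its group by Dixon's test, which was run on 12 groups of 5 to 7 larvae and marks about 1 in 20 groups by chance.

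The second step differed between strains for 42 genes. By the edgeR adjusted p of that test, the genes named in the text among them were fabp10a (0.00234), rbp2b (0.00234), rhbg (0.00234), mgst3b (0.00236), scp2a (0.00236), and1 (0.00236), wdr53 (0.00236), ugt2a4 (0.00621), dhrs13l1 (0.00979), fads2 (0.0186), gc (0.0186) and gstt1b (0.0289). They were followed by ctrb1 (0.0375), the linker histone gene histh1l (0.0375), pgam2 (0.0375), si:dkey-22i16.7 (0.0375), apoea (0.0428) and cpa5 (0.0487). Of these, fabp10a, rbp2b, rhbg, mgst3b, scp2a, and1, ugt2a4 and dhrs13l1 stayed below 0.05 in all 51 fits that left out 1 larva, and wdr53 lost its call without PET larva 4 at 150 µM (0.185). Clutches are not named in the sources used here, so strain, clutch and exposure cannot be told apart.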

How the results depend on the processing

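No named value called at the second step or between the steps changed sign under the alternatives run, while uncalled values near 0, such as those of ins and cyp2y3, took both signs. Of 97 named genes called at the second step, 32 (27 of 70 lower and 5 of 27 higher) stayed called under 11 other settings, the minimum fold change not being among them, and in all 51 fits that left out 1 larva, and 65 lost the call without at least 1 strain. The 154 genes called at the second step became 324 with no filter on low counts, 234 with the DESeq2 Wald test, 62 without AB, 99 without RW and 26 with a minimum log2 fold change of 1. The 401 genes of the first step became 608 with no filter, 191 without AB, 231 without RW and 63 with that minimum. The 43 genes that differed between the steps became 182 with no filter and 24 without AB. Fits on a strain's own larvae called 102 genes in AB, 69 in TU and 3 in PET. With the total count as a covariate PET had 10 called genes, the contrast of TU with the other strains 23 and that of PET 15, and with the size factors of DESeq2 the TU contrast had 12.

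Leaving out 1 larva gave 135 to 180 genes for the second step, 12 to 51 within RW, 21 to 79 for a difference between strains, and 0 to 2, 2 to 62, 3 to 7 and 6 to 43 for the contrasts of AB, TU, RW and PET. The labels do not say what the larva numbers stand for, and larvae were not treated as pairs across doses. The median correlation of deviations over 74 same-numbered pairs was -0.00478, and 3 pairs exceeded 0.1. Such a correlation cannot show whether same-numbered larvae shared a plate position or a clutch. A replicate block by larva number gave 154 genes at the second step, 398 at the first and 44 between the steps. It gave 5 within PET, 22 for a difference between strains and 18 and 10 for the contrasts of TU and PET, and 40, 114, 42, 0 and 4 for AB, TU and RW within strains and for the contrasts of AB and RW.

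Without the 9 larvae of low total count 7 of the 97 named calls were lost, and whether depth set this was not tested, since the fit also has fewer larvae. In a whole larva the levels of a small organ are diluted by all other tissues, and with 1 biological replicate the spread between exposures was not measured.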
